A study of Homo sapiens with 10 samples.

Results

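Annexins are the family of proteins that bind acidic membrane phospholipids, above all phosphatidylserine, when calcium rises. The 10 genes described here were taken by symbol (ANXA1, ANXA2, ANXA3, ANXA4, ANXA5, ANXA6, ANXA7, ANXA9, ANXA10 and ANXA11), out of 26485 genes listed. They were measured by RNA-seq of polyadenylated RNA in SW480, a human colorectal adenocarcinoma cell line, labelled wild type in genotype and with no treatment named in the labels. Flow sorting on the surface receptor ROBO1 gave the ROBO1pos population (SW480-CBC in the labels) and the ROBO1neg population (SW480-RSC), with 5 libraries each. Both populations come from 1 line. No label states that the replicates were separate cultures, so the spread behind the p-values may be technical only.

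An annexin consists of a conserved core of repeats, which carries the calcium-dependent membrane binding, and an N-terminal head that differs between members and often docks a small S100 protein. Through these parts annexins bridge membranes, seal wounds of the plasma membrane, take part in secretion and endocytosis, and, once outside the cell, act in clotting, fibrinolysis and inflammation. In intestinal epithelium several of them lie beneath the plasma membrane, where they link it to actin. In bulk libraries, fewer cells that express a gene and less of its RNA per cell cannot be told apart.

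Gene counts summed to between 23228686 and 29539100 per library, so that 1 CPM (counts-per-million of the scaled library) stood for 23.2 to 29.5 reads. ROBO1, the receptor used for the sort, was at 400.0 to 462 CPM in the ROBO1pos libraries and at 5.63 to 9.04 CPM in the ROBO1neg libraries. The labelled epithelial cell type was checked against 10 markers. The keratin KRT18 averaged 2343 ± 231 CPM in ROBO1pos and 4095 ± 424 CPM in ROBO1neg, and KRT8 averaged 2165 ± 189.8 CPM in ROBO1pos and 3755 ± 491 CPM in ROBO1neg (SD, n = 5 each), while KRT20 had 0 counts in every library. Of the 10 markers 8 were tested, with 3 higher in ROBO1pos, 3 higher in ROBO1neg and 2 not past the threshold. The adhesion protein EPCAM averaged 679.9 ± 22.9 CPM in ROBO1pos against 303 ± 12.8 CPM in ROBO1neg, and the microvillus protein VIL1 averaged 503 ± 23.3 CPM in ROBO1pos against 27.7 ± 3.14 CPM in ROBO1neg. Epithelial markers thus differed in both directions. Summed markers of other cell types were low in both populations. They were higher in every ROBO1neg library for the immune and endothelial lists, while the ranges touched for the fibroblast list. The 8 fibroblast markers summed to 10.4 to 14.1 CPM in ROBO1pos against 14 to 22.6 CPM in ROBO1neg, with COL3A1 at 0 everywhere. COL1A1 averaged 4.87 CPM in ROBO1pos and 14.3 CPM in ROBO1neg, and PDGFRB averaged 1.15 CPM in ROBO1pos and 2.94 CPM in ROBO1neg. LUM (3.73 CPM in ROBO1pos, 0.0309 CPM in ROBO1neg) and COL1A2 (1.97 CPM in ROBO1pos, 0.353 CPM in ROBO1neg) had the higher mean in ROBO1pos. LUM passed the filter on low counts only through ROBO1pos, so the filter fixed its direction. COL1A2 also needed the ROBO1pos libraries to pass. The 9 immune markers summed to 1.2 to 1.7 CPM in ROBO1pos against 1.78 to 3.56 CPM in ROBO1neg, with TYROBP at 0. CD14 averaged 1.18 CPM in ROBO1pos and 1.5 CPM in ROBO1neg, and ITGAM averaged 0.0310 CPM in ROBO1pos and 0.854 CPM in ROBO1neg. CSF1R (0.108 CPM in ROBO1pos, 0.0481 CPM in ROBO1neg) and PTPRC (0.0479 CPM in ROBO1pos, 0 in ROBO1neg) had the higher mean in ROBO1pos. The 6 endothelial markers summed to 0.504 to 0.889 CPM in ROBO1pos against 2.43 to 4.36 CPM in ROBO1neg, with EMCN at 0. VWF averaged 0.449 CPM in ROBO1pos and 3.20 CPM in ROBO1neg, whereas CDH5 averaged 0.209 CPM in ROBO1pos and 0.0451 CPM in ROBO1neg. The immune and endothelial sums were thus higher in ROBO1neg, as most but not all annexins below were. The part of these marker lists in the results was not tested. ROBO1pos library 5 stood apart from its group for ANXA1, S100A10 and S100A11, whose values are also given without it.

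The sequences that bear most on the results are the promoters of the 3 annexins with the widest log2 fold changes and the start of the ANXA2 coding region, which has a near-identical copy elsewhere in the genome. Each promoter is the 250 bases before the annotated start, from RefSeq on GRCh38.p14, written 5′ to 3′ on the gene's strand. The gene spans given below are from GENCODE, which starts these 3 genes further upstream, so the promoters overlap those spans. That of ANXA2 lies wholly inside its span (RefSeq start 60397986, GENCODE start 60402883). The bases before the GENCODE start of ANXA2 were not searched. Capitals mark the AP-1 motif TGANTCA and the TATA motif TATAAA, which were searched for on both strands together with the TEAD motif GGAATG.
ANXA2 promoter, chr15:60397987-60398236, minus strand: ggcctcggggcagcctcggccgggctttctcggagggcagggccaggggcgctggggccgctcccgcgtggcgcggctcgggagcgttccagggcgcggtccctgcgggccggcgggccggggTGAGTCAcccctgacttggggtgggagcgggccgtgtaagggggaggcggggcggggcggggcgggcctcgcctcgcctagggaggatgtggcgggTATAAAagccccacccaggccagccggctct
ANXA6 promoter, chr5:151157780-151158029, minus strand: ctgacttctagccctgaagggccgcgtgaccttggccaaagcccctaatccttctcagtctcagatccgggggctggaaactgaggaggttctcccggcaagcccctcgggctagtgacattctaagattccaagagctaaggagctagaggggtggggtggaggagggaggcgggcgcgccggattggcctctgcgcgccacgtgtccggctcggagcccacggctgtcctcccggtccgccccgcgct
ANXA1 promoter, chr9:73151615-73151864, plus strand: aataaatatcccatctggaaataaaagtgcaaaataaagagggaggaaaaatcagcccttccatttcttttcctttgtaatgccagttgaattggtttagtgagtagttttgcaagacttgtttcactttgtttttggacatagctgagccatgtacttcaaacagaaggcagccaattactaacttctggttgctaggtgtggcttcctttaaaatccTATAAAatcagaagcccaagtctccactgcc

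The 3 promoters differ in composition. That of ANXA2 has 78.0% G and C and 28 CG dinucleotides, that of ANXA6 printed above has 65.6% and 19 (its second annotated promoter, not shown, has 56.4% and 10), and that of ANXA1 has 38.4% and 0, where the median of 35116 promoters is 58.0% and 11. ANXA2 and ANXA1 hold TATAAA with its first base at the same place, -31 from the start, and ANXA2 also holds TGAGTCA, a form of TGANTCA, at -127. Over the 14 promoters given for the 10 annexins, TGANTCA was found only in that of ANXA2, TATAAA also in that of ANXA10 (-29) and in 1 of those of ANXA11 (-61), and GGAATG in none. Of all promoters of this length, 6.57% hold TGANTCA, 10.7% TATAAA and 11.9% GGAATG. A match is a description of the letters, and its absence says nothing about the factor.

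Of the 10 annexins, 9 passed the filter on low counts and were tested. ANXA1, ANXA2, ANXA3, ANXA5, ANXA6, ANXA7 and ANXA9 were lower in ROBO1pos than in ROBO1neg, ANXA4 was higher in ROBO1pos, ANXA11 did not pass the test, and ANXA10 was all but undetected. The populations differ in most of what they express. Across the 14932 genes tested with edgeR (quasi-likelihood F test, Benjamini-Hochberg adjusted p under 0.05), 82.0% of genes were called, 41.6% as higher in ROBO1pos and 40.4% as higher in ROBO1neg. The annexins' 8 calls in 9 therefore lie near the background and are not in themselves a result about the family. For those 8 genes no ROBO1pos library overlapped the ROBO1neg range, as for 71.9% of all genes tested. When a difference of more than 1.5-fold was required, 6 annexins were higher in ROBO1neg (background 22.1% of genes) and 0 in ROBO1pos (background 19.7%), because ANXA4 and ANXA7 no longer passed.

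**Figure D1:**
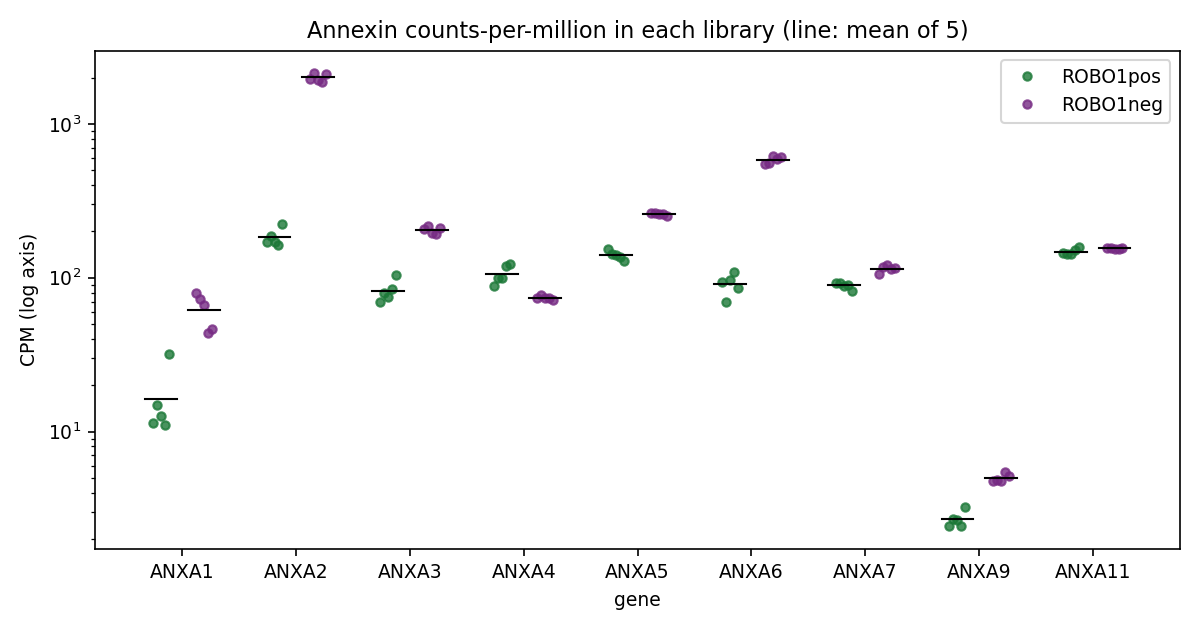
CPM (log axis) of the 9 tested annexins in each library, ROBO1pos left and ROBO1neg right of each gene; points are libraries and lines are means of 5. ANXA2 stands at 163 to 224 CPM in ROBO1pos and 1881 to 2130.1 CPM in ROBO1neg, and only ANXA11 overlaps between the groups; ANXA10 is not drawn.

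ANXA2 docks S100A10 through its head, binds actin and gathers plasminogen and its activator at the cell surface. It showed the widest difference of the 9. It lies on the minus strand of chromosome 15 from 60347134 to 60402883 (GRCh38, GENCODE 29). The ROBO1pos libraries had 171, 186, 172, 163 and 224 CPM and the ROBO1neg libraries had 1962, 2130.1, 1939, 1881 and 2108 CPM. All ROBO1pos libraries lay far below all ROBO1neg libraries, and library 5 was the highest of the ROBO1pos group. The log2 fold change, ROBO1pos minus ROBO1neg, was -3.45 (SE 0.08, edgeR adjusted p = 1.9e-13), so that ANXA2 was 10.9-fold higher in ROBO1neg.

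ANXA6, the only annexin with a doubled core, binds membranes at cholesterol-rich sites and acts in endocytosis and membrane repair. It lies on the minus strand of chromosome 5 from 151100712 to 151157882. The ROBO1pos libraries had 93.5, 69.3, 96.5, 109.6 and 85.7 CPM, against 550.2, 559, 616, 589 and 613 CPM in the ROBO1neg libraries. The groups were well apart and neither held a library at odds with its own group. The log2 fold change was -2.69 (SE 0.10, edgeR adjusted p = 8.3e-12), or 6.44-fold higher in ROBO1neg.

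ANXA1, a glucocorticoid-induced protein whose released head activates formyl peptide receptors, had the next widest log2 fold change. It lies on the plus strand of chromosome 9 from 73151757 to 73170393. It had 11.3, 14.9, 12.7, 11 and 31.9 CPM in the ROBO1pos libraries and 79.1, 73.0, 66.3, 43.9 and 46.7 CPM in the ROBO1neg libraries. ROBO1pos library 5 lay well above the other ROBO1pos libraries and still below every ROBO1neg library. The log2 fold change was -1.92 (SE 0.27, edgeR adjusted p = 1.4e-05) with all libraries and -2.31 (SE 0.18, adjusted p = 3.5e-08) without ROBO1pos library 5. The 267 other genes called at least 32-fold higher in ROBO1neg, chosen after the data were seen, summed to 217 CPM in ROBO1pos library 5. The whole ROBO1pos group had 211 to 295 CPM and ROBO1neg had 16751 to 18498 CPM. This same fit chose these genes, so their sums are low in every ROBO1pos library by selection. Nothing about library 5 is drawn from them.

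ANXA3 (chromosome 4, 78551519 to 78610451, plus strand), an annexin abundant in neutrophil granules, had 69.6, 79.3, 74.5, 83.9 and 104 CPM in ROBO1pos and 207, 216, 195, 192 and 209 CPM in ROBO1neg. Its log2 fold change was -1.31 (SE 0.09, edgeR adjusted p = 4.7e-09). ANXA5 (chromosome 4, 121667955 to 121697113, minus strand), the phosphatidylserine binder used as a probe of dying cells, had 155, 143, 141, 137 and 129 CPM in ROBO1pos against 264, 264, 259, 259 and 253 CPM in ROBO1neg. Both genes were lower in every ROBO1pos library than in any ROBO1neg library. The log2 fold change of ANXA5 was -0.88 (SE 0.05, edgeR adjusted p = 3.2e-10).

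ANXA9 and ANXA7 differed by less. ANXA9 (chromosome 1, 150982017 to 150995634, plus strand), whose core lacks the usual calcium sites, was scarce, with 2.44, 2.71, 2.67, 2.42 and 3.25 CPM in ROBO1pos against 4.80, 4.82, 4.77, 5.46 and 5.12 CPM in ROBO1neg, on 60 to 160 counts per library. Its log2 fold change was -0.89 (SE 0.11, edgeR adjusted p = 4.0e-06). ANXA7 (chromosome 10, 73375101 to 73414076, minus strand), which binds sorcin and aids the fusion of secretory granules, had 91.9, 93.1, 89.0, 89.8 and 81.7 CPM in ROBO1pos against 106, 117, 120.1, 114 and 116 CPM in ROBO1neg. Its libraries were tight and did not overlap, so that a log2 fold change of only -0.36 (SE 0.05) passed with an edgeR adjusted p of 4.8e-06.

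ANXA4 (chromosome 2, 69644425 to 69827100, plus strand), an annexin of epithelia found beneath the apical membrane, was the one member higher in ROBO1pos. It had 88.1, 99.8, 99.2, 119 and 123 CPM in the ROBO1pos libraries, against 74.1, 77.7, 74.1, 73.9 and 71.5 CPM in the ROBO1neg libraries. The ROBO1pos libraries were spread more widely, and the lowest of them still lay above the highest ROBO1neg library. The log2 fold change was 0.51 (SE 0.08, edgeR adjusted p = 3.2e-05), or 1.43-fold higher in ROBO1pos. AAK1 lies on the opposite strand over part of ANXA4 and had at most 1386 counts in a library. Reads of both genes may not be separated, since the sources used here do not give the strand setting of the counting.

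ANXA11 (chromosome 10, 80150889 to 80205572, minus strand), which has a long head, binds S100A6 and PDCD6 and tethers RNA granules to lysosomes, had 145, 143, 142, 152 and 158 CPM in ROBO1pos and 157, 156, 153, 153 and 155 CPM in ROBO1neg. The groups overlapped. The log2 fold change was -0.07 (SE 0.04, 95% interval -0.15 to 0.02, edgeR adjusted p = 0.12), and without ROBO1pos library 5, the highest of its group, it was -0.10 (adjusted p = 0.028), which passed. ANXA10 (chromosome 4, 168092515 to 168187690, plus strand), an annexin of the stomach, had 2 counts over all ROBO1pos libraries and 0 over all ROBO1neg libraries. The limit that a count of 0 allows (3 counts per library, for counting error only) is 0.102 to 0.129 CPM, and no fold change was derived.

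**Figure D2:**
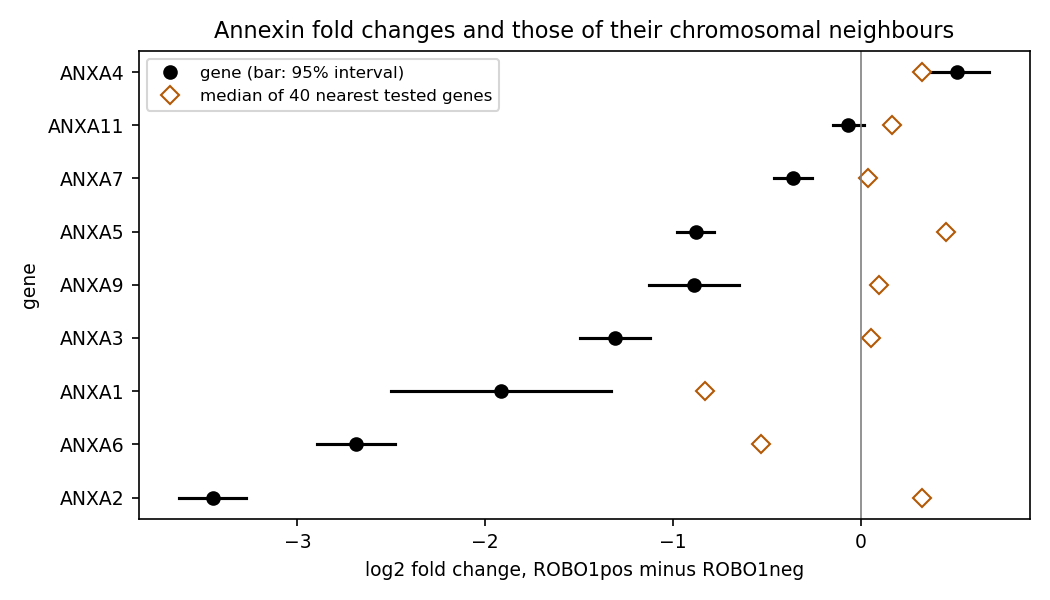
Log2 fold changes, ROBO1pos minus ROBO1neg, of the 9 tested annexins (points, with 95% intervals), and the median for the 40 nearest tested genes on the same chromosome (diamonds). ANXA2 is at -3.45 where its neighbours' median is 0.33, while ANXA1, at -1.92, has neighbours at -0.83.

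Some chromosome regions differ as a whole between the populations, so each annexin was set beside its neighbours. The median over the 20 tested genes nearest on each side was 0.33 around ANXA2, -0.53 around ANXA6 and -0.83 around ANXA1. The ANXA1 region is thus itself lower in ROBO1pos, and with that median removed ANXA1 was at -1.09 (adjusted p = 0.0022), nearer to 0 than ANXA3 (-1.36) and ANXA5 (-1.33) on the same scale. ANXA4 likewise lies among genes higher in ROBO1pos, with a neighbours' median of 0.32, and was at 0.19 (adjusted p = 0.039) with it removed. ANXA11 lies among genes at 0.16, and its value less that median was -0.23 (adjusted p = 7.1e-05), which passed. The other annexins kept their sign and their call with the neighbours' median removed. Here and below, p-values with that median removed use the gene's own standard error and take the median as fixed. They leave out the spread of the neighbours, so they do not test whether a gene departs from its neighbours.

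Levels of different genes were compared only per length, as CPM per kilobase of the exons of protein-coding transcripts. The exons of all such transcripts were joined, to 7507 bases for ANXA11 (6 transcripts), 3143 for ANXA2 (27) and 1762 for ANXA5 (3). A joined length can exceed that of the RNA present and then lowers the gene's value, so the orders below depend on it. In ROBO1pos the order was ANXA5 (80.1), ANXA2 (58.3), ANXA4 (37.9), ANXA3 (35.7), ANXA7 (32.6), ANXA6 (24.2), ANXA11 (19.7), ANXA1 (6.49), ANXA9 (1.48) and ANXA10. The library ranges of ANXA4 and ANXA3, of ANXA3 and ANXA7, and of ANXA6 and ANXA11 overlapped. With the reads of its processed copies added (described with the pseudogenes), ANXA2 in ROBO1pos was at 103 (92.3 to 126 over libraries). That lay above the 73.4 to 87.7 of ANXA5, so the first place in ROBO1pos also turns on how those reads are assigned. In ROBO1neg the order was ANXA2 (638), ANXA6 (156), ANXA5 (148), ANXA3 (88.5), ANXA7 (42.0), ANXA4 (26.5), ANXA1 (24.5), ANXA11 (20.6), ANXA9 (2.74) and ANXA10. There the ranges of ANXA6 and ANXA5, of ANXA4 and ANXA1, and of ANXA1 and ANXA11 overlapped.

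Summed over the 10 genes, annexin CPM was 859.6 ± 48.3 in ROBO1pos and 3464 ± 122 in ROBO1neg, 4.03-fold more. ANXA2 gave 21.3 ± 1.92% of the sum in ROBO1pos against 57.8 ± 1.19% in ROBO1neg. ANXA6 gave 10.6 ± 1.80% in ROBO1pos and 16.9 ± 1.04% in ROBO1neg (SD, n = 5 each). With its copies counted in, ANXA2 gave 32.3 ± 2.56% in ROBO1pos against 70.7 ± 1.14% in ROBO1neg. The mean shares of the other 7 tested annexins were larger in ROBO1pos, among them ANXA5 (16.5% in ROBO1pos, 7.51% in ROBO1neg), ANXA11 (17.2% in ROBO1pos, 4.48% in ROBO1neg), ANXA4 (12.3% in ROBO1pos, 2.15% in ROBO1neg), ANXA7 (10.4% in ROBO1pos, 3.31% in ROBO1neg) and ANXA3 (9.52% in ROBO1pos, 5.88% in ROBO1neg). That of ANXA1, 1.87 ± 0.874% in ROBO1pos and 1.78 ± 0.451% in ROBO1neg, differed by less than its spread. These shares are not per length and a rise of one lowers the rest.

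**Figure D3:**
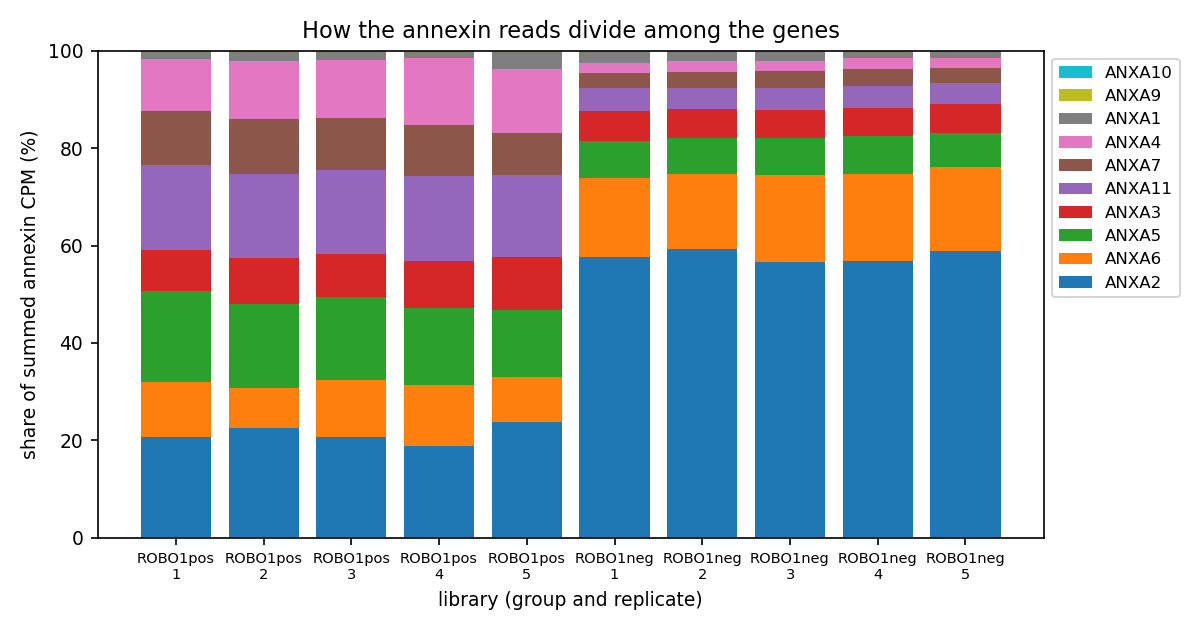
Share of the summed annexin CPM (percent) that each gene gave in each library, ROBO1pos libraries left and ROBO1neg right. ANXA2 (the lowest segment) fills 18.7% to 23.8% of the ROBO1pos bars and 56.6% to 59.2% of the ROBO1neg bars.

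ANXA2 has processed pseudogenes, copies of its spliced RNA inserted elsewhere. ANXA2P2, on the plus strand of chromosome 9 from 33624274 to 33625293, matches 1004 of the 1020 coding bases of ANXA2 (98.4%), with a longest identical run of 221 bases. ANXA2P1 matches 93.6% and ANXA2P3 91.4% of the aligned positions. The first 120 coding bases, which include the code for the head of ANXA2, show how little separates the pair. Both are read from GRCh38 (GENCODE 29), with capitals at the 1 base that differs.
ANXA2 coding start: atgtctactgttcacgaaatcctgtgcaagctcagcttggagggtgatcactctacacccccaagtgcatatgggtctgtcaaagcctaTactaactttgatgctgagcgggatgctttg
ANXA2P2 start: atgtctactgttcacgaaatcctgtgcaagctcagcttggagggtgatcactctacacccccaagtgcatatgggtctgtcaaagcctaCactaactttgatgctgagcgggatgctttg

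Reads counted on ANXA2P2 followed those on ANXA2. ANXA2P2 had 3321, 4047, 3246, 3138 and 4132 reads in ROBO1pos, against 33871, 38785, 33814, 41137 and 43776 in ROBO1neg. ANXA2 itself had 4430, 5031, 4436, 4026 and 5455 reads in ROBO1pos, against 46185, 49464, 44684, 55133 and 58452 in ROBO1neg. Per ANXA2 read there were 0.765 ± 0.0281 ANXA2P2 reads in ROBO1pos and 0.754 ± 0.0189 in ROBO1neg (SD, n = 5 each; exact two-sided permutation test, p = 0.516), a ratio for which no difference was detected. ANXA2P2 had a log2 fold change of -3.43 (SE 0.09, edgeR adjusted p = 3.7e-13), and ANXA2 with its 3 copies summed had -3.44 (SE 0.09, adjusted p = 2.5e-13). The levels of ANXA2 and ANXA2P2 are therefore uncertain, since reads of either could be counted on the other or on neither. The sum has the same fold change as ANXA2 alone. Reads aligned to several places were tallied apart from the genes. They were 24.6 ± 0.875% of the reads in ROBO1pos libraries and 21.2 ± 0.398% in ROBO1neg. Reads that fit ANXA2 and a copy equally may be among them and so missing from the sum too. Their part in these values was not tested.

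**Figure D4:**
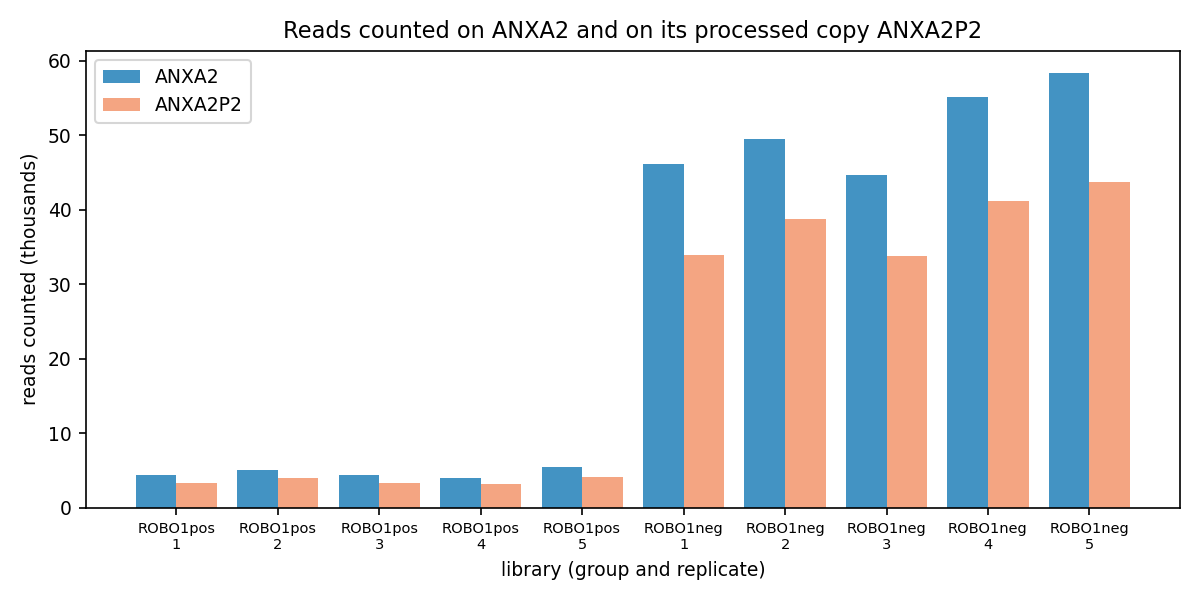
Reads counted on ANXA2 and on ANXA2P2 in each library, ROBO1pos libraries left and ROBO1neg right. The ANXA2P2 bar stands at 0.732 to 0.804 of the ANXA2 bar in ROBO1pos and at 0.733 to 0.784 in ROBO1neg.

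The scarcer copies of ANXA2 were also lower in ROBO1pos. ANXA2P1 had a log2 fold change of -3.39 and ANXA2P3 of -2.79, both called. ANXA8L1 and its near copy ANXA8 are annexin genes outside the 10 described here, not copies of ANXA2. ANXA8L1 had 2 counts over the ROBO1pos libraries and 83 over the ROBO1neg libraries. ANXA8 had 0 in ROBO1pos and 52 in ROBO1neg and was not tested. Reads of that pair are likewise uncertain. With ANXA2P2 these make 5 genes and pseudogenes, of which 4 were tested. All 4 were called as lower in ROBO1pos, where 40.4% of all genes were. ANXA2P3 and ANXA8L1 passed the filter on low counts only through ROBO1neg (1.17 and 0.662 CPM there, 0.166 and 0.0160 CPM in ROBO1pos). The filter thus fixed the direction of these 2. ANXA2P1 (0.194 to 0.566 CPM in ROBO1pos, 3.28 to 6.37 CPM in ROBO1neg) also needed ROBO1neg libraries to pass. Of the 4, 3 are copies of ANXA2 whose reads may be shared with it. The count is therefore not a result about these rows.

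Of 11 partner proteins and receptors, 8 were tested, of which 3 were higher in ROBO1pos, 4 higher in ROBO1neg and 1 not past the threshold. These calls took in 87.5% of the tested partners, near the 82.0% of all genes (41.6% higher in ROBO1pos and 40.4% higher in ROBO1neg). The median of their log2 fold changes was -0.38, against 0.02 over all genes tested. S100A10, the partner of ANXA2, had 75.6, 82.5, 82.9, 86.3 and 132 CPM in ROBO1pos and 374, 378, 305, 305 and 335 CPM in ROBO1neg. Its log2 fold change was -1.89 (SE 0.13, edgeR adjusted p = 8.1e-09). S100A11, the partner of ANXA1, had 64.9, 70.3, 61, 65.4 and 112 CPM in ROBO1pos and 492, 498, 419, 425 and 497 CPM in ROBO1neg, with -2.64 (SE 0.14, adjusted p = 5.9e-10). As for ANXA1, ROBO1pos library 5 was the highest of its group for both and stayed below every ROBO1neg library. Without it the log2 fold change was -2.06 for S100A10 and -2.84 for S100A11. S100A6, the partner of ANXA11, had 309.9, 330.3, 294, 291 and 323 CPM in ROBO1pos and 566, 648, 476, 488 and 545 CPM in ROBO1neg, with -0.81 (SE 0.08, adjusted p = 1.7e-07).

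AHNAK, the giant scaffold that the pair of ANXA2 and S100A10 recruits to the membrane, had 75.6, 93.5, 111, 92.1 and 124 CPM in ROBO1pos against 1471, 1129, 1539, 1319.9 and 1478 CPM in ROBO1neg. The groups were far apart, with a log2 fold change of -3.81 (SE 0.13, edgeR adjusted p = 4.5e-12). The calcium sensors PDCD6 and SRI (sorcin), which bind ANXA11 and ANXA7, were higher in ROBO1pos, PDCD6 by 0.78 (SE 0.05) and SRI by 0.50 (SE 0.05) on the log2 scale. With the neighbours' median removed PDCD6 was at 0.13 (adjusted p = 0.021), and SRI, at 0.05 (adjusted p = 0.37), no longer passed. The formyl peptide receptors, which bind the ANXA1 head, were all but unread. FPR1 and FPR2 had 0 counts in ROBO1pos and 1 count each in ROBO1neg, and FPR3 had 0 in ROBO1pos and 46 in ROBO1neg.

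The partner was not in constant proportion to its annexin. The CPM ratio of S100A10 to ANXA2 was 0.441, 0.442, 0.482, 0.530 and 0.588 in ROBO1pos against 0.191, 0.177, 0.157, 0.162 and 0.159 in ROBO1neg. ANXA2 differed more than S100A10 did, so the ratio was higher in ROBO1pos, by 1.55 on the log2 scale. The ratio takes ANXA2 without its copies. ANXA2 held 56.6% of the reads on it and its copies in ROBO1pos and 56.9% in ROBO1neg. The level of the ratio in each group thus depends on how those reads are assigned. The ratio of S100A11 to ANXA1 averaged 4.94 ± 0.972 in ROBO1pos and 7.94 ± 2.07 in ROBO1neg, a log2 difference of -0.67. Its groups lay close, with 5.95 the highest in ROBO1pos and 6.23 the lowest in ROBO1neg. ROBO1pos library 5 had the lowest S100A11 to ANXA1 ratio, 3.50. Without that library the log2 difference was -0.56 for S100A11 to ANXA1 and 1.48 for S100A10 to ANXA2. The ratio of S100A6 to ANXA11 averaged 2.10 ± 0.145 in ROBO1pos and 3.51 ± 0.410 in ROBO1neg, a log2 difference of -0.74 (SD, n = 5 each). All 3 ratios had non-overlapping groups and an exact two-sided permutation p of 0.00794, the smallest that 5 against 5 libraries can give. Adjusted over the 3 it was also 0.00794. With libraries paired by replicate number, the exact permutation p was 0.0625 for each, the smallest that 5 pairs can give.

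**Figure D5:**
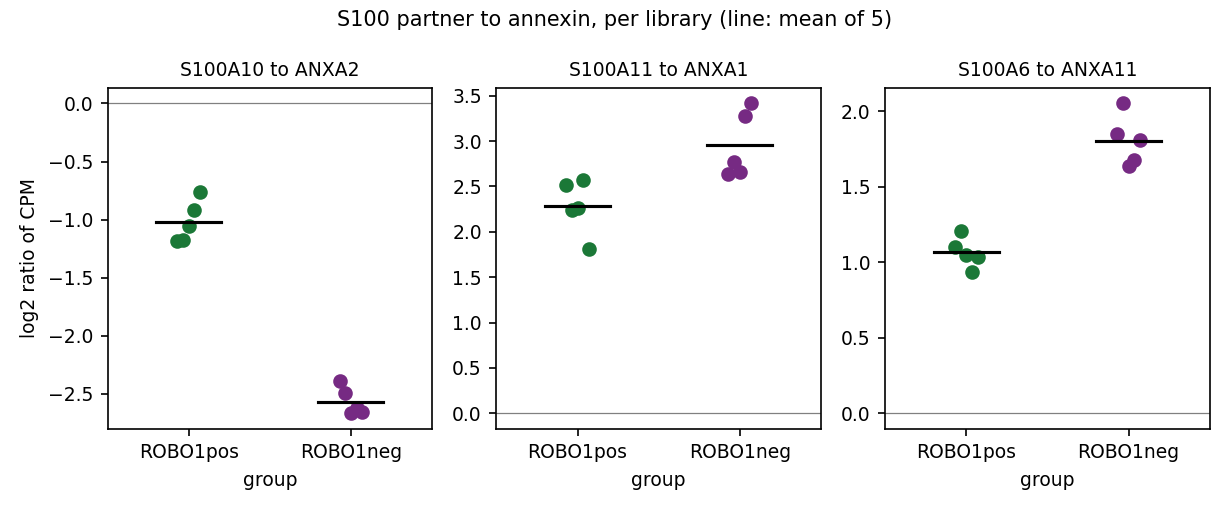
Log2 ratio of the CPM of an S100 protein to that of its annexin in each library, ROBO1pos left and ROBO1neg right; lines are means of 5, and vertical scales differ between panels. The mean log2 ratio of S100A10 to ANXA2 is -1.02 in ROBO1pos and -2.57 in ROBO1neg, whereas the other pairs are lower in ROBO1pos.

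Among 22 genes of plasma membrane repair, in which annexins seal the wound, 20 were tested: 4 were higher in ROBO1pos, 13 higher in ROBO1neg and 3 not past the threshold (median -0.55). The 85.0% called is near the background of 82.0%, of which 41.6% were higher in ROBO1pos and 40.4% higher in ROBO1neg. EHD2, among the 13, passed the filter on low counts only through ROBO1neg (8.78 CPM there, 0.179 CPM in ROBO1pos). The filter thus fixed its direction. PTRF, a coat protein of caveolae, averaged 38.3 ± 4.82 CPM in ROBO1pos and 351 ± 29 CPM in ROBO1neg (-3.20 on the log2 scale, SE 0.08, edgeR adjusted p = 4.5e-13). EHD1, a membrane-remodelling ATPase, was also lower in ROBO1pos, at -1.16. Here and in what follows such signed values are log2 fold changes, ROBO1pos minus ROBO1neg. SYT7, the calcium sensor of lysosome exocytosis, was higher in ROBO1pos, with 123 ± 4.92 CPM in ROBO1pos against 39.8 ± 2.13 CPM in ROBO1neg (1.62, SE 0.05, adjusted p = 8.5e-13). VPS4B, the ATPase that disassembles ESCRT-III, was called higher in ROBO1pos at 0.88 but, with the neighbours' median removed, was called in the opposite direction at -0.23 (adjusted p = 0.00033). The ferlins DYSF and MYOF, membrane proteins that trigger patch repair, were named after their values were seen. DYSF averaged 68.6 ± 24.9 CPM in ROBO1pos and 3.61 ± 0.753 CPM in ROBO1neg, whereas MYOF averaged 36.7 ± 7.47 CPM in ROBO1pos and 258 ± 22 CPM in ROBO1neg, so these relatives differed in opposite directions.

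Flippases and scramblases move lipids between the leaflets of a membrane, and several of them act on phosphatidylserine, the lipid annexins bind. Of 15 flippases and scramblases 13 were tested, with 6 higher in ROBO1pos and 7 higher in ROBO1neg (median -0.42), beside 41.6% and 40.4% of all genes. The scramblase ANO6, which exposes phosphatidylserine when calcium rises, averaged 67.1 ± 2.08 CPM in ROBO1pos and 213.9 ± 9.86 CPM in ROBO1neg (-1.67, SE 0.04, edgeR adjusted p = 3.0e-13). The flippase ATP11B was at -1.25, and at -0.45 with the neighbours' median removed. The flippases ATP8B2 (2.67), known for moving phosphatidylcholine, and ATP10D (1.18), known for moving glucosylceramide, were higher in ROBO1pos.

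Of 12 other calcium-dependent phospholipid binders 10 were tested, with 3 higher in ROBO1pos, 5 higher in ROBO1neg and 2 that did not pass (median -0.92); the 80.0% called is near the background of 82.0%, with 41.6% higher in ROBO1pos and 40.4% higher in ROBO1neg. The copine CPNE7 averaged 89.0 ± 9.28 CPM in ROBO1pos and 14.9 ± 1.43 CPM in ROBO1neg (2.58, SE 0.08, edgeR adjusted p = 2.5e-12), and the phospholipase PLA2G4A was at 2.32. The kinase PRKCA was at -1.63, and the copine CPNE8 had 3 counts over the ROBO1pos libraries against 505 over the ROBO1neg libraries. CPNE8, among the 5, passed the filter on low counts only through ROBO1neg, so the filter fixed its direction. PLAUR, the urokinase receptor of cell-surface plasminogen activation, in which ANXA2 also takes part, averaged 2.91 ± 0.515 CPM in ROBO1pos and 31.1 ± 3.23 CPM in ROBO1neg (-3.42, SE 0.11, edgeR adjusted p = 3.7e-12).

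The genes whose pattern over the 10 libraries was most like that of the 3 annexins with the widest log2 fold changes were found by the root mean square difference of centred log2 CPM. For ANXA2 they were ANXA2P2 (0.042), IER5 (0.11) and TUBB2A (0.12), where the median over all genes was 1.75. For ANXA6 they were APOE (0.12), KCNJ5 (0.12) and GIPR (0.13). For ANXA1 they were LINC01186 (0.26), S100A10 (0.30) and NTF3 (0.30). All of these genes were also lower in ROBO1pos, a difference that the measure includes.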

How the data were processed

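Each of the 10 deposited files lists whole-number read counts by gene symbol, which the authors left unnormalised. Per the labels' protocols, a stranded mRNA kit was used. Per the submitters' processing notes, the build was GRCh38 and the tools were bcl2fastq, FastQC, STAR 2.6.0c, SAMtools 1.9 and DESeq2 1.24.0. The sources used here do not give the counting program, its strand setting or its annotation. Rows without a gene name entered neither library sizes nor tests. Reads on genes were on average 58.7% of the reads in ROBO1pos libraries and 63.4% in ROBO1neg libraries, reads with no feature 15.8% and 14.6%, and ambiguous reads 0.806% to 0.881% per library.

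The tests were run in R 4.3.3 (edgeR 4.0.16, limma 3.58.1): filterByExpr, TMM, a quasi-likelihood fit with group as the only term, and Benjamini-Hochberg adjustment over 14932 genes. CPM used TMM-scaled library sizes, and standard errors came from the coefficient and its F statistic. The fit was tested on simulated counts first. Exact permutation tests ran over 252 assignments. Gene positions for neighbours came from a RefSeq table (GRCh38.p14), which gave a place to 13663 genes by symbol and to 934 more by an older name, but not to 335. Within-group pairs of libraries differed by 3.42 to 20.8 times the sampling variance, so none was a duplicate.

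The annexins and the gene lists were chosen with earlier results of these data known. Named genes were all members, the partners S100A10, S100A11, S100A6, FPR1, FPR2, FPR3 and AHNAK, up to 2 called genes per list and direction by smallest adjusted p, the 2 highest markers per cell type, and the 3 genes nearest in pattern to each of the 3 annexins that differed most. An item that this rule takes, and the counts of its list, are not reported here. DYSF, MYOF, EHD2, ANXA2P3, ANXA8, ANXA8L1, EPCAM, VIL1, CDH1, CDX2, CEACAM5, GPA33, LGALS4, LUM, COL1A2, CSF1R and PTPRC were named after their values were seen. The alternatives were other scalings and filters, limma-voom, DESeq2 1.42.0, a threshold of 1.5-fold, a replicate block, each library left out, the median of neighbours removed and, chosen after seeing the data, ANXA2 summed with its copies.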

Additional observations from a re-analysis of the deposited data

Results flagged for a closer look

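A library was picked out where its gap to the nearest of the other 4 in its group exceeded 0.71 of the group's range. Of 103 groups checked over 49 named genes and the partner ratios, 9 were picked out, where chance gives about 5.15 (1 in 20). The groups are not independent, so the 9 were not tested against that number. NTF3, for one, was named for its likeness to ANXA1 over these same libraries. ROBO1pos library 5 accounts for 7 of the 9, and it was the highest of its group in 6 of these. Its values were 31.9 CPM for ANXA1, 132 CPM for S100A10, 112 CPM for S100A11, 49.5 CPM for MYOF, 1.64 CPM for NTF3 and 2739.8 CPM for KRT18, and for ATP10D it was the lowest at 24.1 CPM. Without that library the log2 fold change was -2.31 for ANXA1, -2.06 for S100A10 and -2.84 for S100A11, against -1.92, -1.89 and -2.64 with it. Its part in the results was not tested beyond these values. In ROBO1neg, library 5 was low for ATP10D at 10.5 CPM, and library 1 was high for ATP11B at 202 CPM.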

How the results depend on the processing

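Over 9 annexins and the planned and added alternatives, 184 refitted values kept direction and call, 2 were weaker and 2 stronger. The test against 1.5-fold left 2938 genes higher in ROBO1pos and 3298 higher in ROBO1neg, against 6214 and 6036, and 0 annexins higher in ROBO1pos; ANXA4, ANXA7 and SRI no longer passed. ANXA11 passed with the neighbours' median removed (-0.23) and without ROBO1pos library 5 (-0.10). With that median removed VPS4B was at -0.23 (adjusted p = 0.00033, called in the opposite direction) and KRT8 at 0.055 (adjusted p = 0.56, opposite in sign and not called), and SRI (0.05) and KRT18 (-0.05) no longer passed; CD14 passed at -0.52, and at -0.44 without ROBO1pos library 2 or ROBO1neg library 5. The cause was not tested. With 1 library left out, 7 to 8 annexins were higher in ROBO1neg and 1 in ROBO1pos. With the copies of ANXA2 summed, the log2 difference in the annexin read share (their summed CPM) was -2.32, against -2.01 without. The filter of 5 CPM in 5 libraries removed ANXA9.

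Same-numbered libraries correlated at 0.0620 to 0.169 in their deviations from the group means, and libraries of different number at -0.134 to 0.0951. The same-numbered libraries were not treated as pairs, since not every one exceeded 0.1, the level used for pairing. Still, 5 ROBO1pos and 3 ROBO1neg libraries correlated best with their own number. With the replicate block, 6226 and 6086 genes were higher in ROBO1pos and ROBO1neg, and 1 and 7 annexins. The partner ratios under the block kept 1.55, -0.67 and -0.74, with the smallest exact permutation p that 5 pairs can give, 0.0625. Depth limits ANXA10, FPR1 and FPR2, for which a difference was not detectable.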
